A study of Mus musculus with 7 samples.

Results

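Placental growth factor and its relatives, the vascular endothelial growth factors (VEGFs), were examined in cultured mouse epicardium with and without lamin B1. The family comprised 8 of the 22738 rows in the gene tables, found by an exact match of the gene name: the 5 ligand genes Pgf, Vegfa, Vegfb, Vegfc and Figf and the 3 receptor genes Flt1, Kdr and Flt4. Figf is the older symbol of the VEGF-D gene. Of these, 7 passed the filter on low counts and Vegfb did not. The family was chosen by the measured Pgf counts, already known to be high in the mutant libraries of this same contrast, so the genotype comparison is given for its members as a description, without a test of their own.

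The VEGFs are secreted dimers that bind receptor tyrosine kinases, best known from endothelial cells. Placental growth factor and VEGF-B bind FLT1, VEGF-A binds both FLT1 and KDR, and VEGF-C and VEGF-D bind FLT4. FLT1 holds VEGF-A tightly but signals weakly, and its soluble form acts as a trap, whereas KDR carries most of the signal that drives endothelial growth. In the embryonic heart the epicardium is a source of growth factors for the forming coronary vessels and itself supplies fibroblasts and mural cells.

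The cells were explants from the ventricles of E12.5 mouse embryo hearts. Ventricles were laid on gelatin-coated wells for 48 hours, the hearts were then taken away, and the cells left behind were grown for 72 hours more before RNA was extracted. There were 3 libraries from Lmnb1-/- embryos and 4 from wild type embryos, all on a mixed C57BL/6, 129S4Sv/Jae and 129S6/SvEvTac background and with no treatment. Lmnb1 encodes lamin B1, a filament protein of the nuclear lamina. The kind of null allele was not described, and the labels number the replicates without saying which came from separate embryos or litters, so p-values measure only the spread between these libraries, part of which may be technical.

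Lmnb1 had 4, 2 and 4 counts in the Lmnb1-/- libraries and 463, 185, 488 and 567 counts in the wild type libraries. Total counts were 1786519 to 3066936 in Lmnb1-/- libraries and 1024898 to 2732236 in wild type libraries, which is shallow. At this depth 3 counts made 0.965 to 3.10 CPM, the counts scaled to the TMM-adjusted total of the library. Wild type replicates 1 and 3 came from female embryos by their Xist counts, and the other 5 libraries, all Lmnb1-/- ones among them, were male. All 17 epicardial markers that matched a row were detected above the filter, with a summed level of 3469 to 4307 CPM in Lmnb1-/- libraries and 3843 to 5022 CPM in wild type libraries. Of 10775 genes tested by quasi-likelihood in edgeR, 76 passed a Benjamini-Hochberg adjusted p of 0.05, a background of 0.705%, with 39 higher in Lmnb1-/- explants (0.362%) and 37 lower (0.343%). Genes past this threshold are said below to be called.

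Pgf was the family member with the largest difference between the genotypes, and the single called member of the 7 tested, where 0.705% of all tested genes were called. Placental growth factor is a ligand of FLT1 that was first found in placenta. Pgf had 29.9, 38.1 and 22.6 CPM in the 3 Lmnb1-/- libraries, against 10.4, 8.27, 3.01 and 6.75 CPM in the 4 wild type libraries. The lowest Lmnb1-/- library was above the highest wild type library. In raw reads this was 93, 68 and 44 counts in Lmnb1-/- libraries and 24, 8, 8 and 16 counts in wild type libraries, so the wild type level rests on few reads. Pgf averaged 30.2 ± 7.77 CPM in Lmnb1-/- explants (SD, n = 3) and 7.12 ± 3.13 CPM in wild type explants (SD, n = 4), a log2 fold change of 2.12 (SE 0.33). The pooled counts gave a ratio of 4.44 with an exact 95% interval of 3.29 to 6.08, which covers counting error only. Since the gene was singled out for this difference, nothing is read from the call or from the ranges lying apart, which 13.3% of all tested genes showed.

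The size of the Pgf difference changed little with the libraries used, whereas the call did change. Leaving out each library in turn gave log2 fold changes of 1.82 to 2.44. Pgf was no longer called if wild type replicate 3, or Lmnb1-/- replicate 1, or Lmnb1-/- replicate 2 was left out. Those fits called 4, 4 and 3 genes in all. It was also not called with sex as a covariate, at a log2 fold change of 2.04 (SE 0.45). Wild type replicate 3, a female library, had the lowest Pgf level of the 7. Among male libraries alone, the 3 Lmnb1-/- values stood against 8.27 and 6.75 CPM in wild type replicates 2 and 4, and the log2 fold change was 2.04 (SE 0.33).

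**Figure D1:**
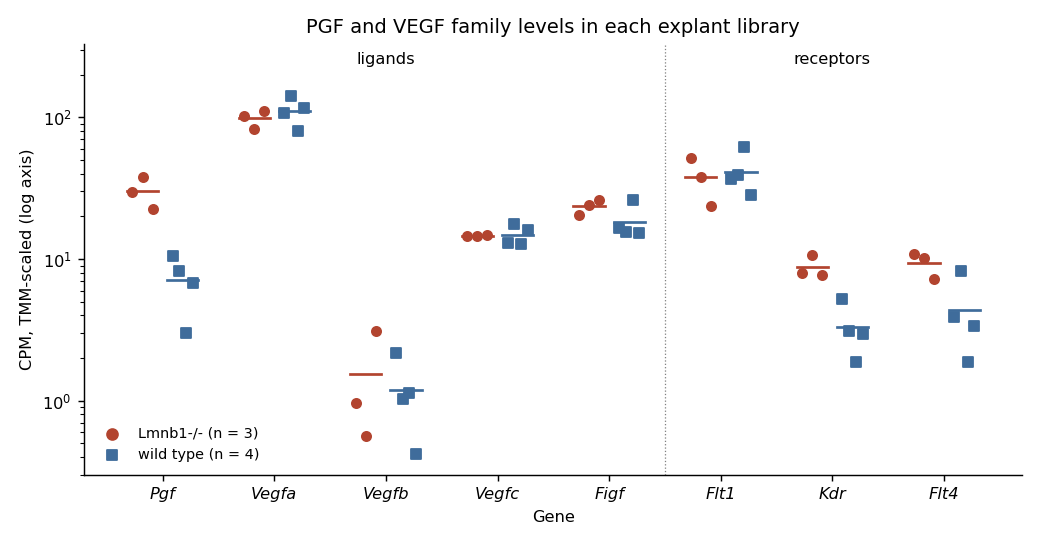
CPM of the 8 family genes in each library on a log axis, with Lmnb1-/- libraries as red circles and wild type libraries as blue squares, and a bar at each group mean. The groups lie apart for Pgf and Kdr, overlap for the other genes, and lie near 1 CPM for Vegfb.

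Vegfa, the main ligand of both FLT1 and KDR, was the most abundant family transcript per kilobase in every library. It had 102, 82.5 and 110 CPM in Lmnb1-/- libraries, against 108, 143, 80.6 and 116 CPM in wild type libraries. The ranges overlapped, and wild type libraries held both the highest and the lowest value. The means were 98.3 ± 14.4 CPM in Lmnb1-/- explants and 112 ± 25.5 CPM in wild type explants, with a log2 fold change of -0.16 (SE 0.17). Within the male libraries the 3 Lmnb1-/- values lay below both wild type values, with a log2 fold change of -0.37 (SE 0.16), and Vegfa was not called there either.

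Vegfc and Figf, the ligands of the lymphatic receptor FLT4, were present at moderate levels in both genotypes. Vegfc had 14.5, 14.6 and 14.9 CPM in Lmnb1-/- libraries, against 13.05, 17.6, 12.8 and 16.02 CPM in wild type libraries. All 3 Lmnb1-/- values fell inside the wild type range, and the log2 fold change was 0.01 (SE 0.22). Figf had 20.6, 24.1 and 26.2 CPM in Lmnb1-/- libraries, against 16.5, 15.5, 25.98 and 15.2 CPM in wild type libraries. The overlap came from wild type replicate 3, as the other 3 wild type libraries lay below every Lmnb1-/- library. Figf lies on chromosome X. Of the female libraries, wild type replicate 3 had 25.98 CPM and wild type replicate 1 had 16.5 CPM, and the part of embryo sex was not tested. The log2 fold change of Figf was 0.33 (SE 0.23), or 0.61 (SE 0.25) among male libraries and 0.57 without wild type replicate 3, and it was called in none of these fits.

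Vegfb, a FLT1 ligand known for its role in heart and fat, was too low to compare. It had 3, 1 and 6 counts in Lmnb1-/- libraries and 5, 1, 3 and 1 counts in wild type libraries. Most of these values are at or below the 3 counts used here as the limit of detection, and both groups summed to 10 counts. The pooled ratio of 1.21 had an exact 95% interval of 0.453 to 3.25, counting error only, so even a change of 2-fold in either direction lay inside it.

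On a scale per kilobase of transcript, which allows levels of different genes to be compared, Pgf held a different place among the ligands in the 2 genotypes. In Lmnb1-/- explants the ligand levels were 28.5 CPM per kb for Vegfa, 14.5 for Pgf, 11.5 for Figf, 5.98 for Vegfc and 1.20 for Vegfb. In wild type explants they were 32.4 CPM per kb for Vegfa, 8.93 for Figf, 6.07 for Vegfc, 3.42 for Pgf and 0.929 for Vegfb. Neighbours in these orders were not always separate. Pgf and Figf overlapped in Lmnb1-/- libraries, Pgf and Vegfb overlapped in wild type libraries, and Vegfa was apart from the next ligand in both. Lengths were those of the longest annotated transcript, so these levels are approximate where other isoforms are used.

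Of the summed ligand level per kilobase, Pgf made up 23.7%, 30.4% and 16.9% in the 3 Lmnb1-/- libraries, against 9.75%, 6.53%, 3.32% and 6.34% in the 4 wild type libraries. The shares of the groups did not overlap. These shares, the ratio of Vegfa to Pgf and the place of Pgf among the ligands reuse the Pgf counts by which the family was chosen. They are no second line of support for the Pgf difference. The level of Vegfa per kilobase was 2.10 ± 0.822 times that of Pgf in Lmnb1-/- libraries and 10.8 ± 4.06 times in wild type libraries (SD, n = 3 and 4). The ligand genes together came to 61.7 ± 2.12 CPM per kb in Lmnb1-/- explants and 51.8 ± 7.06 CPM per kb in wild type explants. Wild type replicate 2, at 60.8 CPM per kb, reached the range of the Lmnb1-/- libraries.

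**Figure D2:**
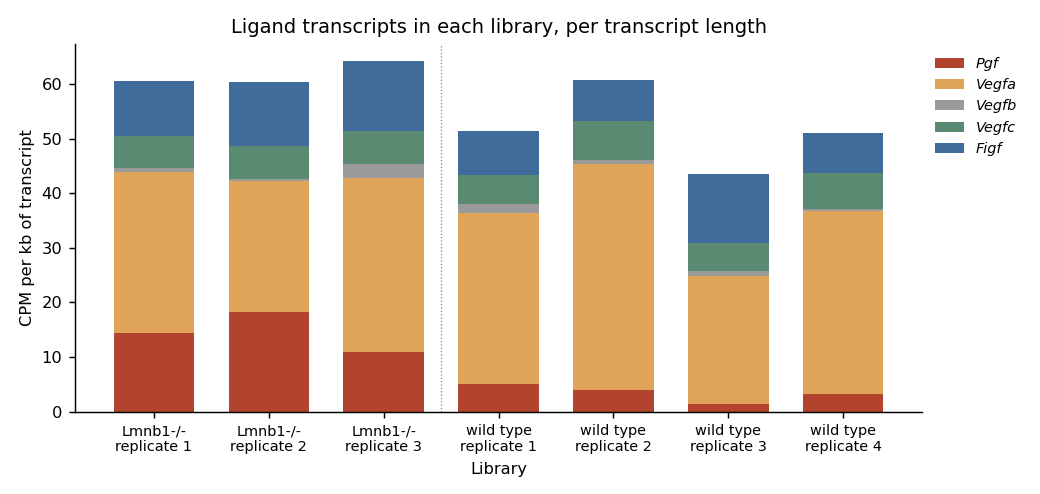
Stacked level of the 5 ligand genes in each library, in CPM per kilobase of transcript, with the 3 Lmnb1-/- libraries left of the 4 wild type libraries. Pgf (red, at the base) makes up 16.9% to 30.4% of the bar in Lmnb1-/- libraries and 3.32% to 9.75% in wild type libraries.

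Flt1, which encodes the receptor shared by placental growth factor, VEGF-A and VEGF-B, was the most abundant of the 3 receptor genes per kilobase with 38 to 164 counts in a library. Flt1 had 52.1, 38.1 and 23.6 CPM in Lmnb1-/- libraries, against 36.5, 39.3, 61.8 and 28.3 CPM in wild type libraries. The groups overlapped broadly, and the spread within each was as wide as the other. Its mean was 38.0 ± 14.2 CPM in Lmnb1-/- explants and 41.5 ± 14.3 CPM in wild type explants, with a log2 fold change of -0.11 (SE 0.31). The sign was not stable, and the value became 0.25 (SE 0.33) among male libraries. Transcripts of this receptor gene were thus present in both genotypes, without a detectable difference beyond the spread of the libraries. Counts per gene do not separate the soluble form from the membrane receptor, and protein was not measured. The standard error leaves room for a change of moderate size either way.

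Kdr, encoding the chief signalling receptor for VEGF-A, was low. It had 25, 19 and 15 counts in Lmnb1-/- libraries and 12, 3, 5 and 7 counts in wild type libraries. On the CPM scale these were 8.04, 10.7 and 7.71 in Lmnb1-/- libraries, against 5.22, 3.10, 1.88 and 2.95 in wild type libraries. Every Lmnb1-/- value was above every wild type value, which was true of 6.36% of all tested genes in this direction. The means were 8.80 ± 1.62 CPM in Lmnb1-/- explants and 3.29 ± 1.40 CPM in wild type explants, and the log2 fold change of 1.40 (SE 0.39) did not reach the call. It passed in 1 of the 17 other fits, the one without wild type replicate 1, where the log2 fold change was 1.76. Among male libraries the value was 1.52 (SE 0.47).

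Flt4, encoding the receptor of VEGF-C and VEGF-D that marks lymphatic endothelium, was as low as Kdr. It had 34, 18 and 14 counts in Lmnb1-/- libraries and 9, 8, 5 and 8 counts in wild type libraries. The levels were 10.9, 10.1 and 7.19 CPM in Lmnb1-/- libraries, against 3.91, 8.27, 1.88 and 3.37 CPM in wild type libraries. Wild type replicate 2, the shallowest library, reached into the Lmnb1-/- range on 8 reads. The log2 fold change was 1.31 (SE 0.41), Flt4 was called in none of the 17 other fits, and among male libraries the value was 0.88 (SE 0.48).

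Kdr and Flt4 had the fewest reads of the receptor genes, at 3 to 25 and 5 to 34 counts in a library, and whether their levels differ between the genotypes is not settled by these libraries. The pooled ratios were 2.65 for Kdr (exact 95% interval 1.65 to 4.35) and 2.67 for Flt4 (1.71 to 4.26), and these intervals lie above 1 but cover counting error only, not the spread between libraries. Together the 3 receptor genes came to 8.49 ± 2.42 CPM per kb in Lmnb1-/- explants and 7.26 ± 1.84 CPM per kb in wild type explants. Flt1 made up 63.7 ± 6.48% of this in Lmnb1-/- libraries and 81.7 ± 8.09% in wild type libraries. Flt1 itself had a log2 fold change of -0.11 (SE 0.31), so the difference in share rests largely on the few Kdr and Flt4 reads. This difference is likewise not settled.

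The VEGF receptors are best known from endothelium, and most endothelial markers were low or absent while a few were not. Of 26 endothelial markers, 14 had fewer than 10 counts over all 7 libraries and 4 passed the filter. Cldn5, a tight junction gene, and Sox17, an arterial transcription factor, had no counts in any library. Cdh5, encoding VE-cadherin, had 6 counts over the Lmnb1-/- libraries and 10 over the wild type libraries, and Pecam1, an endothelial adhesion gene, had 14 over the Lmnb1-/- and 7 over the wild type libraries. The more abundant markers were the angiopoietin receptor gene Tek, with 119 counts over the Lmnb1-/- and 204 over the wild type libraries, Ecscr, with 97 over the Lmnb1-/- and 146 over the wild type libraries, and Cd34, which other cell types also express, with 99 over the Lmnb1-/- and 58 over the wild type libraries. All 3 exceeded Kdr, which had 59 counts over the Lmnb1-/- and 27 over the wild type libraries. Flt1 had 276 in Lmnb1-/- and 353 in wild type.

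Summed over the 26 endothelial markers, the level was 48.9, 78.5 and 88.4 CPM in Lmnb1-/- libraries, against 43.1, 68.2, 52.3 and 99.5 CPM in wild type libraries. These ranges overlapped. None of the 4 tested endothelial markers was called, and the 3 of smallest p were Tek, Egfl7 and Cd34, with log2 fold changes of -0.50, 0.57 and 1.23. In bulk RNA, fewer cells of a type and less RNA per cell cannot be told apart, and the cell type behind the Kdr, Flt4 and Flt1 reads was not tested.

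Macrophages also carry FLT1, and their genes varied widely between libraries. The 19 macrophage markers summed to 50.8, 315 and 760 CPM in Lmnb1-/- libraries, against 157, 90.9, 110 and 439 CPM in wild type libraries. The range of the Lmnb1-/- libraries enclosed that of the wild type libraries. Of the 11 tested, 10 had a log2 fold change above 0 (median 0.88), but none was called, with the smallest p in Emr1, C1qb and C1qc. Without Lmnb1-/- replicate 1, 1 marker that had not passed the filter over all 7 libraries was called, at a log2 fold change of 3.51. The part of these cells in the Flt1 or Pgf levels was not tested. Cd163 had no counts in any library.

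**Figure D3:**
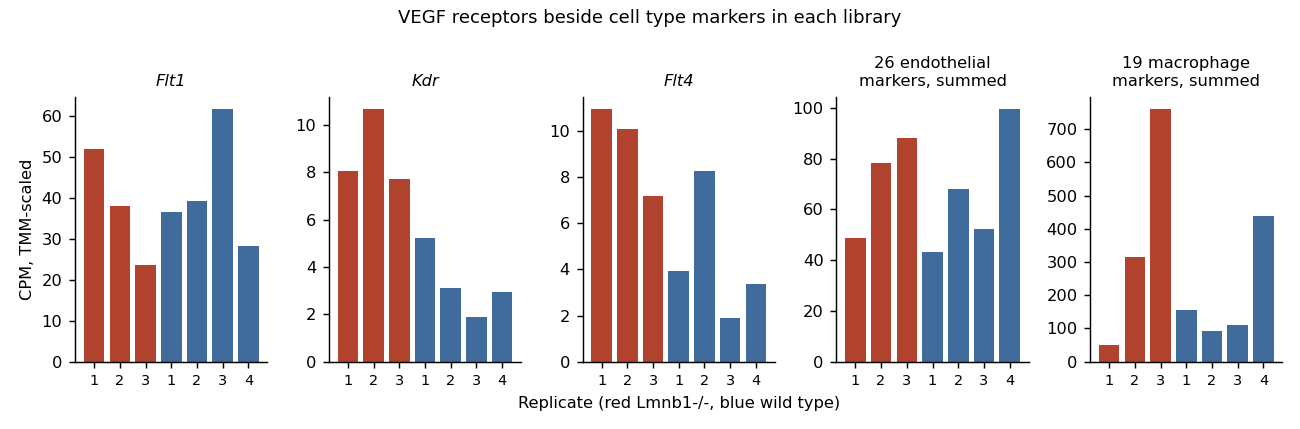
Flt1, Kdr and Flt4 and the summed endothelial and macrophage markers in each library, in CPM on linear axes from 0 that differ between panels, with Lmnb1-/- replicates in red left of wild type replicates in blue. Kdr lies between 7.71 and 10.7 CPM in Lmnb1-/- libraries and between 1.88 and 5.22 CPM in wild type libraries. The endothelial sums overlap and consist mostly of Tek, Ecscr and Cd34.

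Mural cells, the smooth muscle and pericyte lineage that the epicardium can give rise to, were the only marker list with called genes. Of 13 tested mural markers, 5 fell and none rose, where 0.343% of all tested genes were lower, and all 13 had a log2 fold change below 0 (median -1.02, against -0.02 over all tested genes). The 5 were Acta2, Actg2, Des, Cspg4 and Pdgfrb, which encode smooth muscle actins, desmin, the proteoglycan NG2 and a platelet-derived growth factor receptor. The summed level was 8715 to 9514 CPM in Lmnb1-/- libraries and 11373 to 13039 CPM in wild type libraries, without overlap. The count of 5 changed with the libraries used, as did the 76 calls over all tested genes. It was 0 without Lmnb1-/- replicate 1, without Lmnb1-/- replicate 2 or without wild type replicate 3. Those fits called 4, 3 and 4 genes in all. The mural list held 1 of 13 called genes without Lmnb1-/- replicate 3, and 3 of 40 without wild type replicate 2. It held 8 of 279 without wild type replicate 1, 3 of 38 with sex as a covariate and 3 of 44 with both count columns summed. Whether this shift has a part in the Pgf or receptor levels was not tested.

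No gene of the other marker lists was called in the edgeR fit over all 7 libraries. Unadjusted p under 0.05 in edgeR was seen for 0 endothelial, 0 macrophage, 0 cardiomyocyte, 0 erythroid and 6 epicardial markers. The share of all tested genes with such a p was not counted. Nothing is therefore read from these counts, here or in the lists below. Over the 17 tested epicardial markers the median was -0.16 on the log2 scale, with Bnc1, Rspo1 and Krt8 of smallest p. DESeq2 called 4 of the 17, and 175 of all 10775 tested genes. Cardiomyocyte markers summed to 567 to 749 CPM in Lmnb1-/- libraries and 564 to 930 CPM in wild type libraries, and the 3 of smallest p among 6 tested were Actc1, Tnni1 and Nppb. Erythroid markers, with Hba-a1, Hba-a2 and Hbb-y tested, summed to 22.8 to 257 CPM in Lmnb1-/- libraries and 21.1 to 207 CPM in wild type libraries. Hba-a1 and Hba-a2 are near-identical copies and had the same counts in every library, as did Hbb-b1 and Hbb-b2. Their counts are therefore uncertain and are not independent values. The erythroid sums may hold the same reads more than once.

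Co-receptors and proteins that process or bind the ligands showed no called gene among 23 tested of 24. In the edgeR fit 5 had an unadjusted p under 0.05, the median log2 fold change was -0.09, and DESeq2 and limma voom called none. The neuropilins, which bind placental growth factor and several VEGFs beside the kinases, were more abundant than the kinases per kilobase. Nrp1 came to 75.6 CPM per kb in Lmnb1-/- explants and 63.5 in wild type explants, and Nrp2 to 38.2 in Lmnb1-/- and 45.2 in wild type explants. Unscaled for length, Nrp1 averaged 276 ± 25.2 CPM in Lmnb1-/- explants and 232 ± 45.0 CPM in wild type explants (log2 fold change 0.25, SE 0.14), and Nrp2 257 ± 30.5 CPM in Lmnb1-/- and 304 ± 76.0 CPM in wild type explants (-0.23, SE 0.19). The 3 of smallest p were Adamts3, which cuts VEGF-C into its active form, Ccdc23, the older name of the vasohibin partner Svbp, and Ext1, an enzyme of heparan sulfate synthesis. Their log2 fold changes were -1.20 (SE 0.42), 0.61 (SE 0.22) and -0.28 (SE 0.10), and none passed (Benjamini-Hochberg adjusted p 0.238, 0.242 and 0.253 in the edgeR fit). Adamts3 had only 19 counts over the Lmnb1-/- libraries and 55 over the wild type libraries.

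Genes that act downstream of the receptors held none that was called. Of 37 tested of 40, 2 had an unadjusted p under 0.05, and the median log2 fold change was -0.04. The smallest p was that of Ptprb, a receptor phosphatase known for opposing KDR and TIE2 signalling in endothelium. Ptprb had 211, 176 and 117 CPM in Lmnb1-/- libraries, against 237, 284, 287 and 282 CPM in wild type libraries. All Lmnb1-/- values lay below all wild type values. Ranges lay apart for 1 of the 37 tested and, in either direction, for 13.3% of all tested genes. Its log2 fold change was -0.69 (SE 0.17), which missed the threshold in the edgeR fit (Benjamini-Hochberg adjusted p 0.0935), while DESeq2 called it (adjusted p 0.0111) and limma voom called no gene of the list. The kinase gene Prkca and the adaptor gene Gab1 came next, at -0.41 and -0.72 on the log2 scale (adjusted p 0.345 and 0.417, Benjamini-Hochberg, edgeR fit).

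Hypoxia genes, fixed as a list because oxygen shortage is a known inducer of Vegfa and, in some cells, of Pgf, held none that was called. Of 30 tested of 35, none passed by edgeR, DESeq2 or limma voom, 3 had an unadjusted p under 0.05 by edgeR, and the median log2 fold change was 0.10, with 17 above 0 and 13 below. The 3 of smallest p were Ero1l, an oxidase of the endoplasmic reticulum, Egln3, an oxygen-sensing hydroxylase, and Vldlr, a lipoprotein receptor, at 0.28, 0.59 and -0.40 on the log2 scale (adjusted p 0.332, 0.338 and 0.360, Benjamini-Hochberg, edgeR fit). Hif1a, which encodes an oxygen-sensitive transcription factor regulated largely at the protein level, averaged 239 CPM in Lmnb1-/- explants and 245 CPM in wild type explants. The list summed to 3795 to 3881 CPM in Lmnb1-/- libraries and 3507 to 3850 CPM in wild type libraries, and these ranges overlapped.

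Among transcription factors described as regulators of Pgf or Vegfa in mouse or human cells, none of 15 tested of 21 was called. By edgeR 2 had an unadjusted p under 0.05, and the median log2 fold change was -0.04. Ets1, an ETS family factor, had 231, 169 and 173 CPM in Lmnb1-/- libraries, against 148, 107, 109 and 134 CPM in wild type libraries. Egr1, an immediate early gene, had 6.43, 8.97 and 5.14 CPM in Lmnb1-/- libraries, against 16.5, 35.1, 12.8 and 15.6 CPM in wild type libraries. Both had groups that did not overlap, in opposite directions. Ranges lay apart for 3 of the 15 tested and for 13.3% of all tested genes. Their log2 fold changes were 0.61 (SE 0.15) and -1.46 (SE 0.37), and both missed the threshold in the edgeR fit (Benjamini-Hochberg adjusted p 0.0786 and 0.0935), whereas DESeq2 and the fit with the replicate number as a block called both and limma voom called neither. Arnt2, a partner of oxygen-sensitive factors, had a log2 fold change of -0.48. Mtf1, the metal-responsive factor described as an activator of Pgf, averaged 49.8 CPM in Lmnb1-/- explants and 52.5 CPM in wild type explants.

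Other secreted factors that act on vessels held the only called genes of the pathway lists. Of 29 tested of 34, 1 rose and 1 fell, where 0.705% of all tested genes were called in either direction, and the median log2 fold change was -0.09. Hbegf, encoding an epidermal growth factor receptor ligand, had 181, 215 and 191 CPM in Lmnb1-/- libraries, against 130, 114, 139 and 136 CPM in wild type libraries. Tgfb3, encoding a transforming growth factor beta ligand, had 235, 265 and 269 CPM in Lmnb1-/- libraries, against 361, 595, 557 and 665 CPM in wild type libraries. In both genes the groups lay apart, as they did for 6 of the 29 tested and for 13.3% of all tested genes. In the edgeR fit with Benjamini-Hochberg adjustment, Hbegf rose by 0.58 on the log2 scale (SE 0.11, adjusted p 0.0360) and Tgfb3 fell by 1.08 (SE 0.18, adjusted p 0.0315). The count of 2 changed with the libraries used. It was 0 without wild type replicate 2 or 3, or without Lmnb1-/- replicate 1, 2 or 3. Those fits called 40, 4, 4, 3 and 13 genes in all. Without wild type replicate 1, 5 of the list were called, among 279 in all. Both genes kept their direction in all 17 other fits. By edgeR, Hbegf was not called with the replicate number as a block (adjusted p 0.0594), with sex as a covariate (0.0865) or among male libraries (0.0580). Nor was Hbegf called by limma voom (adjusted p 0.0505), or by edgeR without wild type replicate 4 (adjusted p 0.0705). Ptn, encoding the growth factor pleiotrophin, had the log2 fold change farthest from 0 among the 29 tested genes of the list. Genes below the filter were not ranked. Ptn had 18.3, 17.4 and 22.1 CPM in Lmnb1-/- libraries, against 49.6, 42.4, 83.2 and 131 CPM in wild type libraries. Its groups also lay apart, at a log2 fold change of -2.03 (SE 0.43). Ptn missed the threshold in the edgeR fit (Benjamini-Hochberg adjusted p 0.102) and was called by DESeq2 (adjusted p 7.09e-07) and by edgeR with the block (adjusted p 0.00318).

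**Figure D4:**
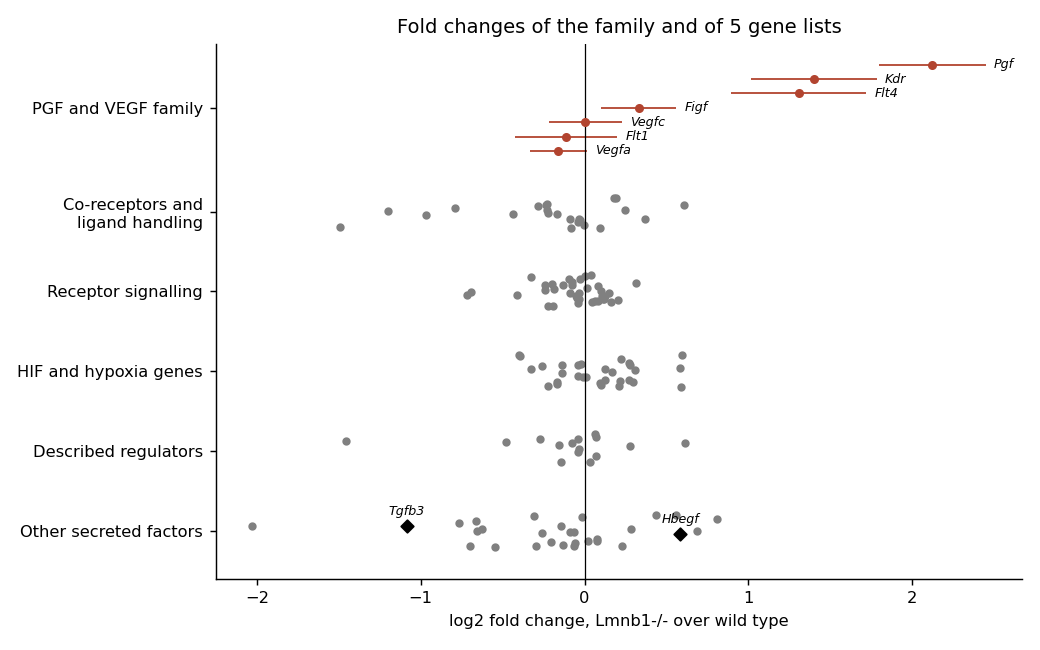
Log2 fold change, Lmnb1-/- over wild type, of the 7 tested family genes (red, with bars of 1 standard error) and of every tested gene of 5 lists (grey points, spread vertically only to separate them), with the called list genes Hbegf and Tgfb3 as black diamonds. Pgf, Kdr and Flt4 lie above 1 and the other family genes between -0.16 and 0.33, while the median of each list lies between -0.09 and 0.10.

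The 250 bases before the start of Pgf, of Kdr and of Vegfa are printed here to set the gene that was called beside the receptor gene whose groups did not overlap and the most abundant ligand gene, which was not called. They are from RefSeq on GRCm38.p6, where all 8 family genes matched a promoter entry, and run 5′ to 3′ on the strand of the gene, which is the minus strand for all 3. They end at the base before the 5′-most listed start. Capitals mark matches on either strand to the hypoxia response cores ACGTG and GCGTG, the metal response core TGCNCNC and the GC box GGGCGG.
Pgf, chr12:85177314-85177563, minus strand: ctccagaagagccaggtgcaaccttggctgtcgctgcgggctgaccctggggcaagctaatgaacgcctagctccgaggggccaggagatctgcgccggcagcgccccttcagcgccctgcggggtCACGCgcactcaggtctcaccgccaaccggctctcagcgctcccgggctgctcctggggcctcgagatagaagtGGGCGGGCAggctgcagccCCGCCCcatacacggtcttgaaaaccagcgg
Kdr, chr5:75978456-75978705, minus strand: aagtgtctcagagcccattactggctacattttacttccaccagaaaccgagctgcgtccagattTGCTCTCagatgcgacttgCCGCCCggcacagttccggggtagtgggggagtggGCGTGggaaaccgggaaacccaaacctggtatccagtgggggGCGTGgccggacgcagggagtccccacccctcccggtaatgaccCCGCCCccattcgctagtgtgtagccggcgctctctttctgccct
Vegfa, chr17:46032378-46032627, minus strand: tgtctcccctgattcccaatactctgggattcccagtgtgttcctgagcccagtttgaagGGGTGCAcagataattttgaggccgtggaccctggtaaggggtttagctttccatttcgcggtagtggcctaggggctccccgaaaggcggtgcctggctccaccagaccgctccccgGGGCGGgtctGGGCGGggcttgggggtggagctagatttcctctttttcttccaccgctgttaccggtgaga

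In the Pgf window GCGTG occurred once, at -124 from the start on the reverse strand, and ACGTG did not occur. TGCNCNC occurred at -48, where it overlaps a GC box at -50, and a second GC box stood at -31. The Kdr window held GCGTG at -131 and -89, TGCNCNC at -185 and GC boxes at -166 and -45. The Vegfa window held TGCNCNC at -190 and GC boxes at -72 and -62, with neither hypoxia core. Such short motifs are common. Over 32851 windows of the same length, 28.2% held GCGTG, 16.6% ACGTG, 44.4% TGCNCNC and 32.7% GGGCGG. A match describes the letters only and is not evidence of a bound site, and nothing follows from a missing match about the factor.

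The genes whose pattern over the 7 libraries was most like that of Pgf were Ptx3, Nog, Rassf1, Snord96a and Tfpi2. Likeness was the root mean square difference of centred log2 CPM, which was 0.43, 0.48, 0.62, 0.64 and 0.64 for these genes and 1.14 for the median of 10768 genes. Ptx3, encoding the secreted pentraxin 3, had 134, 116 and 133 CPM in Lmnb1-/- libraries, against 58.7, 42.4, 33.1 and 43.4 CPM in wild type libraries. Like Pgf, it was lowest in wild type replicate 3 and highest among wild type libraries in replicate 1. Nog, encoding the BMP antagonist noggin, had 18.01, 17.95 and 19.5 CPM in Lmnb1-/- libraries, against 6.09, 7.23, 4.52 and 7.17 CPM in wild type libraries. A measure of this kind picks genes with the same genotype difference, so it is no second line of support for that difference.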

How the data were processed

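RNA was measured in 7 epicardial explant libraries, built with an Illumina TruSeq RNA V2 kit per the labels' protocols. TopHat, edgeR and the build mm9 are named, without role, per the submitters' processing notes, and the counting annotation is not given in the sources used here. The authors deposited, for each library, whole-number counts per gene in 2 unnamed columns, with no normalization recorded per the file headers. The first was used. The second held 16.6 to 19.6% of the counts, and only 4 of these belonged to the family, so its meaning hardly touches these genes. The kit does not mark strand. No family exon overlapped another annotated gene in the GRCm38 annotation.

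Counts were filtered with filterByExpr, scaled by TMM and fitted with edgeR 4.0.16 (limma 3.58.1, R 4.3.3) by the quasi-likelihood test with robust dispersion and no covariate, over all 7 libraries, with Benjamini-Hochberg adjustment at 0.05. The standard error was computed as the absolute log2 fold change over the root of the F statistic. CPM are TMM-scaled, and means are given ± SD (n = 3 Lmnb1-/-, n = 4 wild type). Levels per kilobase used the longest GENCODE transcript on GRCm38. Intervals are exact 95% intervals for counting error.

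The members and all 11 gene lists were chosen with earlier results of these data known. Of 263 list entries, 261 matched a row by symbol or synonym, and a gene could stand in more than 1 list. The genes named are all members, Lmnb1, in each list every called gene (up to 6) or otherwise the 3 of smallest p, and the 5 genes nearest to Pgf over the libraries with a mean log2 CPM of at least 1 (prior count 2). Nrp1, Nrp2, Hif1a, Mtf1, Ptn, Ecscr, Cldn5, Sox17, Cdh5, Pecam1 and Cd163 were named after their values were seen. Alternatives were RLE factors, unscaled totals, no filter, a minimum of 1 CPM in 3 libraries, DESeq2 1.42.0, limma voom, a replicate block, a covariate for sex, only the male libraries, both columns summed, and leaving out each of the 7 libraries, 17 in all.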

Additional observations from a re-analysis of the deposited data

Results flagged for a closer look

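In 42 sets of 4 wild type values, those of the named genes, the library farthest from the others was compared with Dixon's critical gap for 4 samples. Chance flags about 1 in 20 such sets. In the family, Figf was high in wild type replicate 3, at 25.98 CPM against 15.2 to 16.5 CPM in the other wild type libraries. Ptprb was low in wild type replicate 1, at 237 CPM against 282 to 287 CPM. Arnt2 and Egr1 were high in wild type replicate 2, the shallowest library, at 52.7 CPM against 31.2 to 34.3 CPM and at 35.1 CPM against 12.8 to 16.5 CPM. The macrophage gene Emr1 was high in wild type replicate 4, at 24.5 CPM against 7.23 to 8.26 CPM. The causes were not tested.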

How the results depend on the processing

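The count of called genes, 76, depended on the fit. It was 180 without the count filter, 175 with DESeq2, 46 with limma voom, 38 with a covariate for sex and 44 with both count columns summed, and 3 to 279 when each library was left out in turn. The Pgf log2 fold change kept its sign in all 17 alternatives, at 2.04 to 2.23 over the settings with other methods and 1.82 to 2.44 without each library. Pgf was called in 13 of the 17, and the exceptions were sex as a covariate (adjusted p 0.0868) and the fits without wild type replicate 3 (0.0520), Lmnb1-/- replicate 1 (0.101) and Lmnb1-/- replicate 2 (0.112), each by edgeR's quasi-likelihood test. Vegfa, Figf, Kdr and Flt4 kept their sign in all 17. Flt1 changed sign in 4, and Vegfc, near 0, became -0.18 with sex as a covariate and -0.19 among male libraries. The cause was not tested. DESeq2 gave no adjusted p for Kdr and Flt4.

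The lists of co-receptors and ligand handling and of hypoxia genes had 0 called genes in all 17 alternatives. The signalling list had 1 without the filter and with DESeq2 (Ptprb). Over all tested genes these fits called 180 of 16754 and 175 of 10775. The list of other secreted factors had 1 with limma voom, with sex as a covariate and among male libraries (Tgfb3 in each), and 0 to 5 without each library. The list of regulators had 2 without the filter, with DESeq2 and with the replicate block (Ets1 and Egr1), and 0 to 1 without each library. A replicate block gave 77 called genes and a Pgf log2 fold change of 2.08. The labels do not say that equal numbers share a source, and the deviations of equal-numbered libraries correlated at 0.264, -0.158 and -0.0898 across genes, so the numbers were not taken as pairs. At 1024898 to 3066936 counts a library, a gene near 1 CPM has 1 to 3 counts, which limits Vegfb.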
